A study of Homo sapiens with 6 samples.

Results

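Mediator and the general transcription factor TFIID are the large protein assemblies through which promoters recruit RNA polymerase II. Their subunit genes were followed in CAL-27, an established human tongue squamous carcinoma cell line, as rows of a gene table whose symbols begin with MED or TAF and a digit. There were 54 such genes among the 16809 listed, 30 named MED and 24 named TAF. The 3 libraries of the ES-Cu group came from cells given elesclomol, a copper ionophore, together with copper in equal ratio for 24 h. The 3 libraries of the control group came from cells labelled as normal control. The labels used here give no dose, vehicle or count of separate cultures, so a p-value covers only library-to-library spread, part or all of which may be technical. All libraries are from 1 tumour line. Values are TPM, which correct each gene for its length and express it relative to the whole library.

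Mediator bridges DNA-bound activators and the polymerase. Its head and middle modules touch the polymerase, its tail is the main landing site of activators, MED14 spans the modules as a scaffold, and a detachable kinase module (MED12, MED13, cyclin C and CDK8 or CDK19) blocks polymerase binding when attached. TFIID consists of the TATA-binding protein TBP and TBP-associated factors (TAFs), several of which pair through histone-fold domains, and it recognises core promoters and starts assembly of the pre-initiation complex. The TAF names also cover proteins outside TFIID. TAF5L and TAF6L belong to the SAGA coactivator, TAF1A to TAF1D belong with TBP to SL1, the promoter factor of RNA polymerase I, and TAF15 is an RNA-binding protein.

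Read totals and depth are unknown, since TPM keeps neither. The squamous epithelial markers, 8 of 8 of them above 1 TPM on average, summed to 2927 to 2977 TPM in ES-Cu libraries and to 2521 to 2643 TPM in control libraries, with KRT5 between 830.4 and 877.6 TPM and the basal keratin gene KRT14 at 5.16 TPM or lower. SFN carried the higher sum (1212 to 1247 TPM in ES-Cu, 604.9 to 664.3 TPM in control), whereas TP63 (23.5 to 25.3 TPM in ES-Cu, 85.4 to 88.1 TPM in control), CDH1 (68.1 to 74.0 TPM in ES-Cu, 171.2 to 175.8 TPM in control) and KRT17 (276.8 to 287.8 TPM in ES-Cu, 368.4 to 384.9 TPM in control) were lower in ES-Cu. Of the markers of other cell types found in the table, the leukocyte gene PTPRC, the fibroblast gene COL3A1 and the endothelial genes PECAM1, VWF and KDR stayed at 0.17 TPM or lower in every library. The leukocyte list (3 of 5 in the table, nearly all CD68) summed to 49.1 to 54.1 TPM in ES-Cu and 59.6 to 66.1 TPM in control, the fibroblast list (5 of 6, mostly COL1A1) to 4.72 to 5.26 TPM in ES-Cu and 11.4 to 11.6 TPM in control, and the endothelial list (4 of 4, nearly all CDH5) to 1.28 to 1.90 TPM in ES-Cu and 7.14 to 7.47 TPM in control. The part of these shifts in the results was not tested. In bulk RNA, fewer cells of a kind and less RNA per cell cannot be told apart. Of 11927 tested genes (mean of at least 1 TPM), 83.7% were called at an adjusted p under 0.05, 13.6% higher and 70.0% lower in ES-Cu (limma-trend, Benjamini-Hochberg over all tested genes). The median gene stood at a log2 fold change of -0.50 (ES-Cu over control, on log2(TPM + 1), as for all fold changes here unless another scale is named) and at 0.0037 after the libraries were scaled by the median of ratios. After that scaling 38.0% of genes were called higher and 35.8% lower, and under quantile normalization 31.4% higher and 39.9% lower. A gene is therefore said to rise or fall only where it was called with 1 sign on all 3 scales, which held for 13.5% (rise) and 31.2% (fall) of tested genes.

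The subunit genes split in both directions. Of the 54, 52 were tested, and 11 of these rose and 11 fell, 21.2% in each direction. The genes that rose were TAF13, MED26, MED17, MED10, TAF1D, TAF7, MED13, MED21, MED28, TAF1A and MED8. The genes that fell were TAF6, MED11, MED25, MED24, TAF12, MED20, MED18, MED22, TAF10, MED16 and MED14. On the deposited scale 37 of 52 were called, 11 higher and 26 lower, and the median log2 fold change of the 52 was -0.20. The ES-Cu values lay wholly above the control values for 11 of the 52, where 14.0% of all tested genes did so, and wholly below for 27, where 70.3% did. After median-of-ratios scaling 31 members were called higher and 12 lower, and under quantile normalization 25 and 11. TAF13, MED26 and MED17 rose by at least 1 on the deposited log2 scale (2.68% of all tested genes did). TAF6, MED11, MED25 and MED24 fell by at least as much (18.0% did). After median-of-ratios scaling the latter stood at -0.80, -0.66, -0.53 and -0.47, and the other genes that fell between -0.40 (MED18) and -0.23 (MED14). On that scale TAF13, MED26 and MED17 were at 2.1, 1.7 and 1.6. MED10 (1.4), TAF1D (1.3), TAF7 (1.2) and MED13 (1.2) were then above 1 as well. Among the 30 Mediator genes 7 rose and 8 fell, with a median log2 fold change of -0.17, and among the 22 tested TAF genes 4 rose and 3 fell, with a median of -0.23. By module the median was -0.20 for the head, 0.021 for the middle, -0.53 for the tail, -0.31 for the kinase module, -0.19 for TFIID and -0.067 for SL1, where that of all tested genes was -0.50. After median-of-ratios scaling these medians were 0.35, 0.56, 2.45e-04, 0.21, 0.35 and 0.45, and the deposited median of the middle turned negative without ES-Cu replicate 1 or 3 or control replicate 1 or 3 (lowest -0.043). The deposited median of the kinase module, which includes MED12L, turned to 0.035 without control replicate 3 and to 0.026 at a minimum of 5 TPM. The share that rose lay above and the share that fell below that of all genes, and no test of that difference was made.

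**Figure D1:**
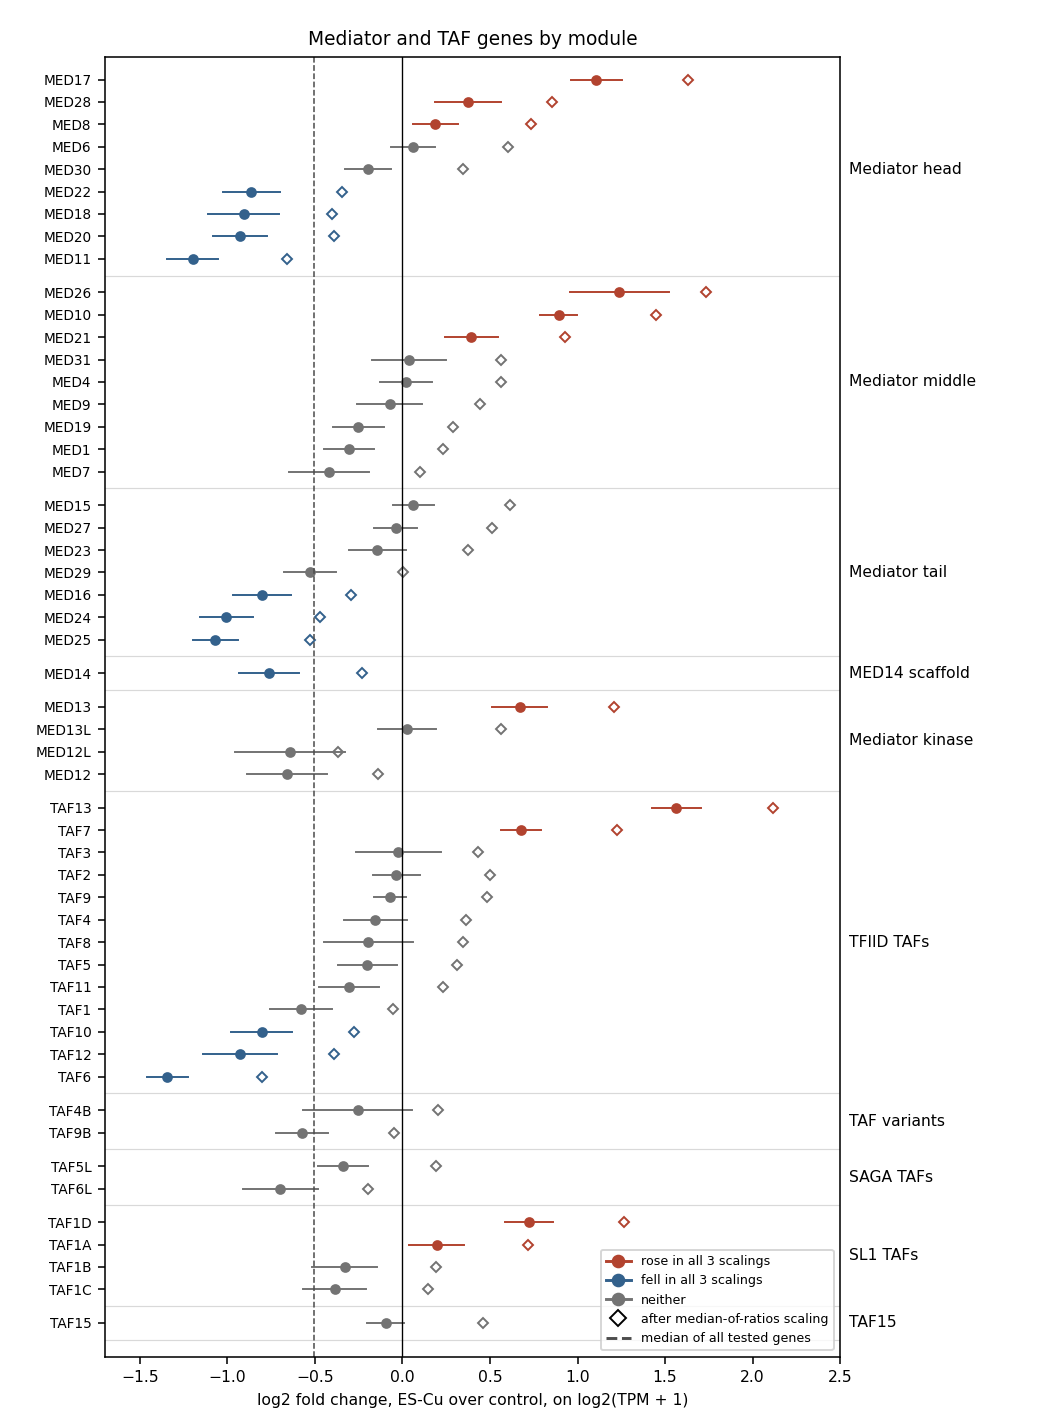
Log2 fold change of each of the 52 tested genes, ES-Cu over control on log2(TPM + 1), grouped by module. Filled points are the deposited scale with 95% intervals from limma, open diamonds the values after median-of-ratios scaling, and the dashed line is the median of all tested genes at -0.50; the head and TFIID groups each hold genes far to the right and far to the left.

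In the head module, which contacts the polymerase and its C-terminal domain, 3 of 9 genes rose and 4 fell. The shares over all tested genes were 13.5% and 31.2%. MED17 encodes the central head subunit, whose yeast counterpart Srb4 is needed for most transcription by RNA polymerase II. It was at 27.96, 25.72 and 27.58 TPM in ES-Cu libraries and at 12.46, 12.07 and 11.55 TPM in control libraries. All 3 ES-Cu values were more than double any control value, with a log2 fold change of 1.11 ± 0.066 (SE; adjusted p = 5.77e-08, limma-trend). In the opposite direction, MED11, a small helical subunit that binds MED22, stood at 18.60, 17.15 and 17.96 TPM in ES-Cu and at 41.89, 39.74 and 45.71 TPM in control. The groups lay far apart, at -1.20 ± 0.066 (adjusted p = 3.41e-08, limma-trend). Its partner MED22 fell as well, at -0.86. MED18 and MED20, which form the hinged jaw of the head, moved alike at -0.91 and -0.93. MED28 (0.37) and MED8 (0.19) rose.

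The remaining head genes were MED6 and MED30. MED6, among the most conserved subunits, was not called as deposited (0.06, 95% interval -0.065 to 0.19) and was called higher on the other 2 scales. MED30, found in metazoan Mediator, was called lower as deposited (-0.20) and higher after median-of-ratios scaling (0.35) and quantile normalization (0.15), so its direction depends on the scale. In GENCODE 29, 41.9% of the exonic bases of MED17 also belong to a second coding gene, AP001273.2, on the same strand, and 32.4% of those of MED28 lie opposite FAM184B. FAM184B was listed at 0.03 TPM or lower in every library. The rule by which such reads were divided is not known here.

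In the middle module, which joins the head to the kinase module, 3 of 9 genes rose and 0 fell. Over all tested genes 13.5% rose and 31.2% fell. MED26, a subunit of the Mediator form that lacks the kinase module and a docking site for elongation factors, had 16.31, 13.89 and 15.36 TPM in ES-Cu and 7.08, 6.18 and 4.54 TPM in control. The lowest ES-Cu value was nearly double the highest control value, and the log2 fold change was 1.24 ± 0.13 (adjusted p = 3.91e-06, limma-trend). MED10, a conserved small subunit, was the most abundant Mediator mRNA, at 223.1, 250.8 and 240.2 TPM in ES-Cu and at 124.9, 127.3 and 130.9 TPM in control. Its groups were well apart (0.89 ± 0.048; adjusted p = 2.92e-08, limma-trend). MED10 alone made up 25.1% ± 1.77 of the TPM of all 30 Mediator genes in ES-Cu and 13.8% ± 0.345 in control (SD, n = 3 each), a share that library scaling does not touch.

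MED21, which forms the flexible hinge of the module with MED7, rose (0.39 ± 0.069). MED7 itself had 11.45, 10.41 and 11.73 TPM in ES-Cu against 12.97, 17.69 and 15.60 TPM in control. It was the lowest of the module (-0.42 ± 0.10; adjusted p = 0.00284, limma-trend) and was not called after median-of-ratios scaling (0.098). MED1, the subunit that nuclear receptors bind, and MED19 were called lower as deposited (-0.31 and -0.25) and higher after median-of-ratios scaling (0.23 and 0.29). MED4, MED9 and MED31 were not called as deposited, with log2 fold changes between -0.073 and 0.037, and were called higher on the other 2 scales. For MED4 the 95% interval was -0.13 to 0.17 and for MED31 it was -0.17 to 0.25. MED31 shares 70.8% of its exonic bases with TXNDC17 on the opposite strand, which had 32.53 to 34.55 TPM in ES-Cu and 44.23 to 44.98 TPM in control, and MED26 shares 45.6% with AC008764.1 on its own strand. The TPM of both genes is uncertain for that reason.

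**Figure D2:**
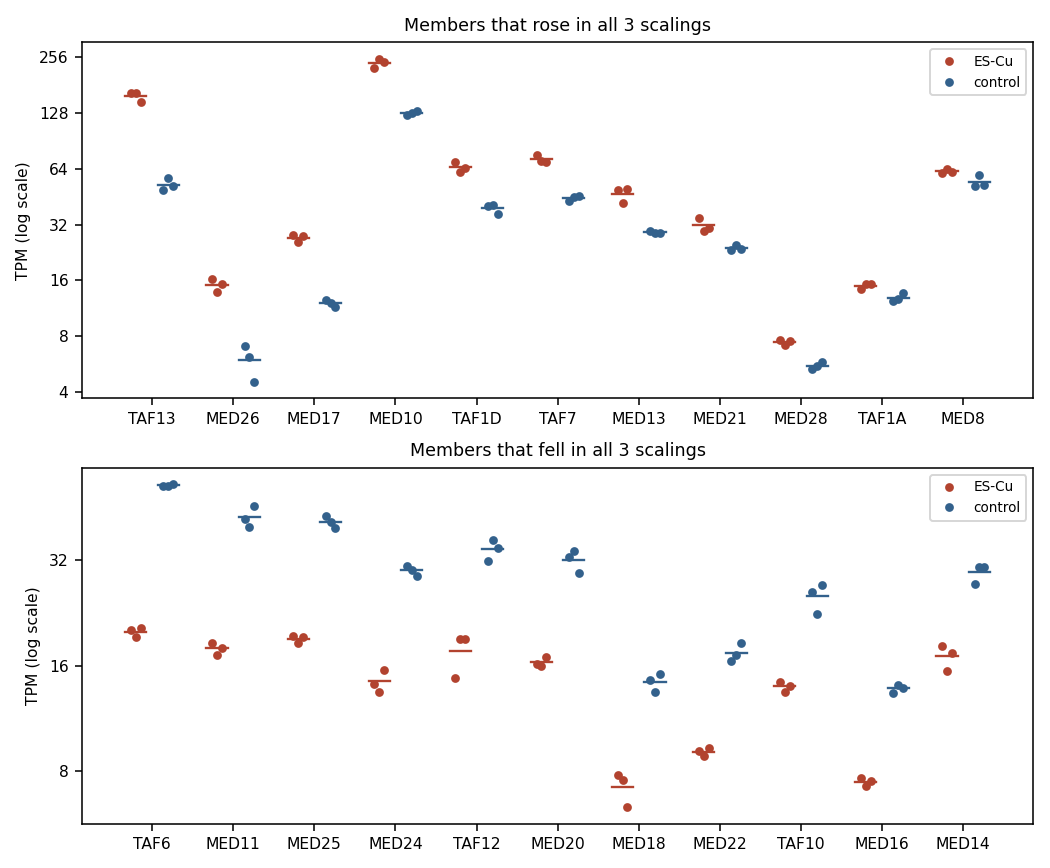
TPM in each library (log axis) of the 11 genes that rose and the 11 that fell, ES-Cu left of control, with horizontal lines at group means. The groups are apart for all 22 genes, which were selected by their calls on these same libraries. Of all tested genes, 14.0% lay wholly above control and 70.3% wholly below. The gap is narrow for MED8 and TAF1A. It is wide for TAF13 (145.9 to 163.3 TPM against 49.12 to 56.80 TPM) and TAF6 (19.29 to 20.44 TPM against 51.92 to 52.65 TPM).

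No tail gene rose and 3 of 7 fell (13.5% and 31.2% of all tested genes). MED25, a target of the viral activator VP16 and of ATF6, had 19.42, 18.56 and 19.32 TPM in ES-Cu and 42.80, 41.15 and 39.57 TPM in control. Each ES-Cu value was under 20 TPM and each control value near or above 40 TPM (-1.07 ± 0.057; adjusted p = 2.78e-08, limma-trend). MED24 was at 14.19, 13.47 and 15.58 TPM in ES-Cu and at 30.82, 30.00 and 28.90 TPM in control, again without overlap (-1.01 ± 0.069; adjusted p = 1.56e-07, limma-trend). MED16, which anchors the tail together with MED24 and MED25, fell by 0.80.

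On the deposited scale the other tail genes kept closer to 0. MED15, the subunit bound by the sterol regulator SREBP, was at 74.83, 68.09 and 76.10 TPM in ES-Cu and at 71.78, 67.72 and 70.12 TPM in control. The groups overlapped (0.06, 95% interval -0.057 to 0.18; adjusted p = 0.302, limma-trend). MED15 was called higher after median-of-ratios scaling (0.61), under quantile normalization (0.37) and with the 20 highest genes removed (0.22). MED27, after MED10 the most abundant Mediator mRNA in either group, also overlapped (-0.040), and MED23, a receptor for ELK1 and the adenoviral protein E1A, stood at -0.14 without a call (adjusted p = 0.0906, limma-trend). MED27 and MED23 were called higher after median-of-ratios scaling (0.51 and 0.38) and under quantile normalization (0.26 and 0.35). MED29 was called lower as deposited (-0.53) and lay at 2.45e-04 after median-of-ratios scaling. The scaffold gene MED14 fell, with 18.21, 15.42 and 17.43 TPM in ES-Cu and 27.42, 30.64 and 30.59 TPM in control. Its log2 fold change was -0.76 ± 0.076 (adjusted p = 2.95e-06, limma-trend), and its groups did not overlap.

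The kinase module genes went separate ways. MED13, which tethers the module to core Mediator, was at 48.97, 41.60 and 49.90 TPM in ES-Cu and at 29.53, 28.63 and 28.80 TPM in control. It rose, with no overlap (0.67 ± 0.070; adjusted p = 4.24e-06, limma-trend). Its vertebrate paralog MED13L was at 25.57, 21.35 and 25.43 TPM in ES-Cu and at 22.91, 23.98 and 23.87 TPM in control. The MED13L groups overlapped and it was not called as deposited (0.026, 95% interval -0.14 to 0.19). MED13L was called higher after median-of-ratios scaling (0.56), under quantile normalization (0.44) and without the GC trend of each library (0.38). Taking out the 20 highest genes also gave a higher call (0.18; adjusted p = 0.0415, limma-trend). MED12, the activator of CDK8, was at 10.95, 8.63 and 11.53 TPM in ES-Cu and at 18.23, 15.79 and 16.58 TPM in control. It was called lower as deposited (-0.66 ± 0.10; adjusted p = 1.09e-04, limma-trend) and not called after median-of-ratios scaling (-0.14; adjusted p = 0.216, limma-trend). Its paralog MED12L averaged 0.627 ± 0.146 TPM in ES-Cu and 1.54 ± 0.227 TPM in control (SD, n = 3 each) and passed the minimum of 1 TPM through its control values. It lay at -0.64 as deposited, and its call was lost under quantile normalization (-0.21; adjusted p = 0.211, limma-trend).

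Among the partners of MED12 and MED13 that carry other names, 0 of 3 rose or fell (13.5% and 31.2% of all tested genes). CDK8 averaged 24.8 ± 1.79 TPM in ES-Cu and 34.4 ± 0.288 TPM in control (-0.46 as deposited, 0.079 after median-of-ratios scaling, where it was not called). Its paralog CDK19 averaged 5.78 ± 0.468 TPM in ES-Cu and 10.4 ± 0.815 TPM in control (-0.76 as deposited, and -0.17 without a call under quantile normalization). CCNC, which encodes cyclin C, averaged 119 ± 6.06 TPM in ES-Cu and 115 ± 5.03 TPM in control and was not called as deposited (0.047). CCNC was called higher after median-of-ratios scaling (0.60) and under quantile normalization (0.28).

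In TFIID 2 of 13 TAF genes rose and 3 fell, or 15.4% and 23.1%, against 13.5% and 31.2% of all tested genes. TAF13 had the largest rise of all 52 genes. It was at 163.3, 162.8 and 145.9 TPM in ES-Cu and at 49.12, 56.80 and 51.76 TPM in control, a 2.99-fold ratio of means. The log2 fold change was 1.56 ± 0.063, and 2.12 after median-of-ratios scaling (adjusted p = 3.97e-09 as deposited, limma-trend). TAF13 pairs with TAF11 through their histone folds, and TAF11 was at 22.27, 18.63 and 21.87 TPM in ES-Cu and at 24.40, 26.60 and 27.17 TPM in control. TAF11 was called lower as deposited (-0.31 ± 0.078; adjusted p = 0.00348, limma-trend) and higher after median-of-ratios scaling (0.23). The log2 ratio of TAF11 to TAF13 in a library does not depend on how libraries are scaled to each other, apart from the added 1 TPM. It was -2.82, -3.06 and -2.68 in ES-Cu and -0.98, -1.07 and -0.91 in control, a difference of -1.87.

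TAF6 had the largest fall of the 52, at -1.34 as deposited and -0.80 after median-of-ratios scaling. It was at 20.25, 19.29 and 20.44 TPM in ES-Cu and at 51.92, 52.21 and 52.65 TPM in control, with little spread in either group (-1.34 ± 0.053; adjusted p = 3.48e-09, limma-trend). TAF9, its histone-fold partner, was at 175.0, 171.3 and 182.2 TPM in ES-Cu and at 185.2, 180.0 and 189.7 TPM in control. The TAF9 groups overlapped and it was not called as deposited (-0.070, 95% interval -0.16 to 0.021). After median-of-ratios scaling TAF9 was called higher (0.49), and under quantile normalization it was not called (0.094). The log2 ratio of TAF6 to TAF9 averaged -3.08 ± 0.024 in ES-Cu and -1.80 ± 0.033 in control (SD, n = 3 each), so it differed by -1.27. In GENCODE 29, TAF9 shares 28.4% of its exonic bases with AK6 on the same strand, and AK6 had 27.12 to 31.04 TPM in ES-Cu and 24.65 to 28.16 TPM in control.

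The other histone-fold pairs also shifted. TAF12 fell, at 14.76, 19.11 and 19.11 TPM in ES-Cu against 31.85, 36.47 and 34.71 TPM in control (-0.93 ± 0.096; adjusted p = 3.82e-06, limma-trend). Its partner TAF4 was at 14.33, 12.12 and 12.33 TPM in ES-Cu and at 13.87, 14.91 and 14.66 TPM in control, which overlapped (-0.16, 95% interval -0.33 to 0.023), and leaving out ES-Cu replicate 1 made it a lower call (-0.23; limma-trend, adjusted p = 0.023). TAF4 was called higher after median-of-ratios scaling (0.36) and under quantile normalization (0.34). TAF10 fell, at 14.40, 13.45 and 14.03 TPM in ES-Cu against 25.89, 22.52 and 27.22 TPM in control (-0.81 ± 0.078; adjusted p = 2.26e-06, limma-trend). Within TFIID, TAF10 binds either TAF8 or TAF3. TAF8 was at 27.86, 29.76 and 28.34 TPM in ES-Cu and at 41.10, 31.75 and 27.31 TPM in control, where the wide control spread spanned all ES-Cu values (-0.19; adjusted p = 0.137, limma-trend). Without control replicate 3 TAF8 was called lower (-0.32; adjusted p = 0.011, limma-trend). After median-of-ratios scaling TAF8 was called higher (0.35), and under quantile normalization it was not called (0.20). TAF3, which reads a methylated histone tail, was low in every library, at 4.43, 3.95 and 4.72 TPM in ES-Cu and at 4.95, 4.51 and 3.93 TPM in control, and overlapped (-0.024; adjusted p = 0.843, limma-trend). TAF3 was called higher after median-of-ratios scaling (0.43) and under quantile normalization (0.61).

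TAF7, a subunit that restrains the acetyltransferase activity of TAF1, rose to 75.69, 70.79 and 69.35 TPM in ES-Cu, against 42.95, 45.05 and 45.72 TPM in control (0.68 ± 0.052; adjusted p = 3.57e-07, limma-trend). TAF7 is the sole gene of the 52 whose longest coding transcript in GENCODE 29 has 1 exon. TAF1, the largest subunit, was called lower as deposited (-0.58) and lay at -0.054 without a call after median-of-ratios scaling. TAF5, a WD40-repeat subunit, was called lower as deposited (-0.20) and higher after median-of-ratios scaling (0.31). The deposited TAF5 call was lost without ES-Cu replicate 1 or 3 or control replicate 1 or 2 (adjusted p = 0.088, 0.0548, 0.0773 and 0.0839, limma-trend) and with the 20 highest genes removed (adjusted p = 0.52). TAF2, which contacts initiator DNA, overlapped between groups (-0.037, 95% interval -0.17 to 0.098). TAF2 was called higher after median-of-ratios scaling (0.50) and under quantile normalization (0.37).

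**Figure D3:**
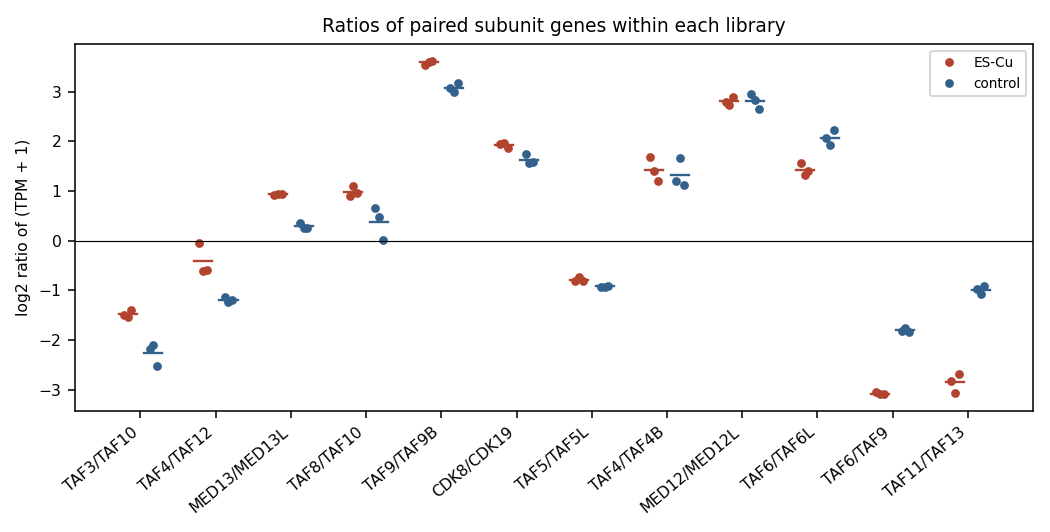
Log2 ratio of (TPM + 1) between paired subunit genes in each library, ES-Cu left of control, with lines at group means; pairs are paralogs or histone-fold partners. The largest shifts are those of TAF11/TAF13 (-1.87) and TAF6/TAF9 (-1.27), and the ratios of MED12/MED12L and TAF4/TAF4B overlap between groups.

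Ratios were compared for 12 pairs, and the groups were apart in 10 of them. Among single tested genes, ES-Cu values lay wholly above control for 14.0% and wholly below for 70.3%. The share among ratios of other gene pairs was not computed, so it is unknown whether the count is particular to these pairs. Each of those 10 had an exact two-sided permutation p of 0.1, the smallest that 3 against 3 libraries allow, and 0.12 after Benjamini-Hochberg adjustment over the 12. MED13 gained on MED13L, with a mean log2 ratio of 0.93 ± 0.017 in ES-Cu and 0.29 ± 0.058 in control. TAF9 gained on its paralog TAF9B (3.59 ± 0.050 in ES-Cu, 3.08 ± 0.099 in control), and CDK8 on CDK19 (1.93 ± 0.054 in ES-Cu, 1.63 ± 0.094 in control; SD, n = 3 each). TAF3 and TAF8 gained on TAF10 by 0.78 and 0.61, and TAF4 on TAF12 by 0.77. TAF6 against TAF6L stood at 1.43 in ES-Cu and 2.07 in control, a difference of -0.65, and TAF5 gained 0.14 on TAF5L. TAF4 against TAF4B overlapped (0.10; exact permutation p = 0.6). MED12 against MED12L overlapped as well (-0.018), but with MED12L near 1 TPM this difference rests on the added 1 TPM, and it was 0.48 and 0.17 with pseudocounts of 0.1 and 0.5.

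Of the 4 variants of TFIID subunits, TAF9B and TAF4B were tested. TAF9B was at 14.24, 13.17 and 13.86 TPM in ES-Cu and at 21.01, 21.91 and 20.04 TPM in control. It was called lower as deposited (-0.58 ± 0.068; adjusted p = 1.09e-05, limma-trend) and not after median-of-ratios scaling (-0.048; adjusted p = 0.494, limma-trend). TAF4B was at 3.77, 3.98 and 4.83 TPM in ES-Cu and at 5.50, 4.03 and 6.23 TPM in control, with overlap (-0.26, 95% interval -0.57 to 0.056), and was called lower without control replicate 2 (-0.41; adjusted p = 0.0134, limma-trend). Under quantile normalization TAF4B was called higher (0.38), and after median-of-ratios scaling it was not called (0.20). TAF1L, an intronless copy of TAF1 whose reads may be shared with it, had 0.20 to 0.50 TPM in ES-Cu and 0.46 to 0.70 TPM in control, and the germ-cell variant TAF7L had at most 0.10 TPM. Both were below the minimum for testing, TAF1L with a mean of 0.480 TPM over all libraries, while MED12L lay just above it at 1.08 TPM.

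The 2 SAGA-specific TAF genes were called lower as deposited and neither fell on all scales. TAF6L was at 6.18, 7.13 and 7.13 TPM in ES-Cu and at 11.63, 12.98 and 10.48 TPM in control (-0.70 ± 0.097; adjusted p = 4.23e-05, limma-trend; -0.20 without a call after median-of-ratios scaling). TAF5L was at 18.11, 18.68 and 19.22 TPM in ES-Cu and at 24.38, 24.95 and 22.48 TPM in control (-0.34 ± 0.065; adjusted p = 4.57e-04, limma-trend), and was called higher after median-of-ratios scaling (0.19). Of 16 other SAGA subunit genes, 2 rose and 7 fell, with a median log2 fold change of -0.54. Of all tested genes 13.5% rose and 31.2% fell, with a median of -0.50. KAT2B, which fell, averaged 0.82 TPM in ES-Cu and 2.61 TPM in control and passed the minimum of 1 TPM through its control values. The acetyltransferase gene KAT2A was lowest, at 18.8 ± 0.861 TPM in ES-Cu and 48.0 ± 0.981 TPM in control (-1.31), and SUPT7L highest (0.28).

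The SL1 genes, which serve RNA polymerase I, held 2 that rose of 4. TAF1D was at 69.88, 61.46 and 64.45 TPM in ES-Cu and at 40.46, 40.52 and 36.55 TPM in control, without overlap (0.72 ± 0.063; adjusted p = 9.47e-07, limma-trend). TAF1A stood at 14.9 ± 0.532 TPM in ES-Cu and 12.9 ± 0.632 TPM in control (SD, n = 3 each). Its rise was small (0.20 ± 0.071; adjusted p = 0.0244, limma-trend), and the call was lost when ES-Cu replicate 2 or 3 or control replicate 1 or 2 was left out (adjusted p = 0.0559, 0.0705, 0.0847 and 0.0596, limma-trend). TAF1C was at 18.79, 15.70 and 18.38 TPM in ES-Cu and at 24.90, 21.81 and 23.30 TPM in control. TAF1C (-0.39) and TAF1B (-0.33) were called lower as deposited and not called after median-of-ratios scaling (0.14 and 0.19). Of 7 RNA polymerase I partners 2 rose and 1 fell, where 13.5% of all tested genes rose and 31.2% fell. RRN3, the initiation factor that recruits the polymerase, was highest (0.38), and UBTF, the nucleolar HMG-box activator, was lowest, at 28.8 ± 2.24 TPM in ES-Cu and 70.0 ± 3.89 TPM in control (-1.25). TAF15 was the most abundant of all members, at 294.5, 277.2 and 263.3 TPM in ES-Cu and at 286.7, 306.0 and 299.2 TPM in control, with overlapping groups and no call as deposited (-0.096, 95% interval -0.20 to 0.0083). Without ES-Cu replicate 1 TAF15 was called lower (-0.14; adjusted p = 0.0205, limma-trend). After median-of-ratios scaling TAF15 was called higher (0.46), and under quantile normalization it was not called (0.019).

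Summed over the complexes the levels were nearly level between groups on the deposited scale, while their makeup differed. The 30 Mediator genes summed to 950 ± 14.9 TPM in ES-Cu and 926 ± 13.8 TPM in control, and the 24 TAF genes to 1008 ± 24.8 TPM in ES-Cu and 984 ± 10.4 TPM in control (SD, n = 3 each). Middle-module genes held 43.5% ± 1.28 of the Mediator total in ES-Cu and 32.5% ± 0.524 in control. Without MED10 the middle sum was 175 ± 6.87 TPM in ES-Cu and 173 ± 7.73 TPM in control. Head genes held 23.1% ± 0.614 in ES-Cu and 27.5% ± 0.209 in control, tail genes 23.0% ± 0.688 in ES-Cu and 29.2% ± 0.332 in control, and MED14 1.79% ± 0.128 in ES-Cu and 3.19% ± 0.166 in control. The TFIID genes summed to 575 ± 7.63 TPM in ES-Cu and 533 ± 2.49 TPM in control, and without TAF13 to 418 ± 8.77 TPM in ES-Cu and 480 ± 4.75 TPM in control. TAF13 alone held 15.6% ± 0.802 of the TAF total in ES-Cu and 5.34% ± 0.340 in control. No test was made on these sums, and they were not rescaled. The median-of-ratios factors were 0.81 to 0.85 in ES-Cu libraries and 1.21 to 1.22 in control libraries. Between groups these factors differ by more than the head sums, the tail sums and the TFIID sums without TAF13. The direction of those sums therefore depends on the scale, while the percentages within a family do not.

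**Figure D4:**
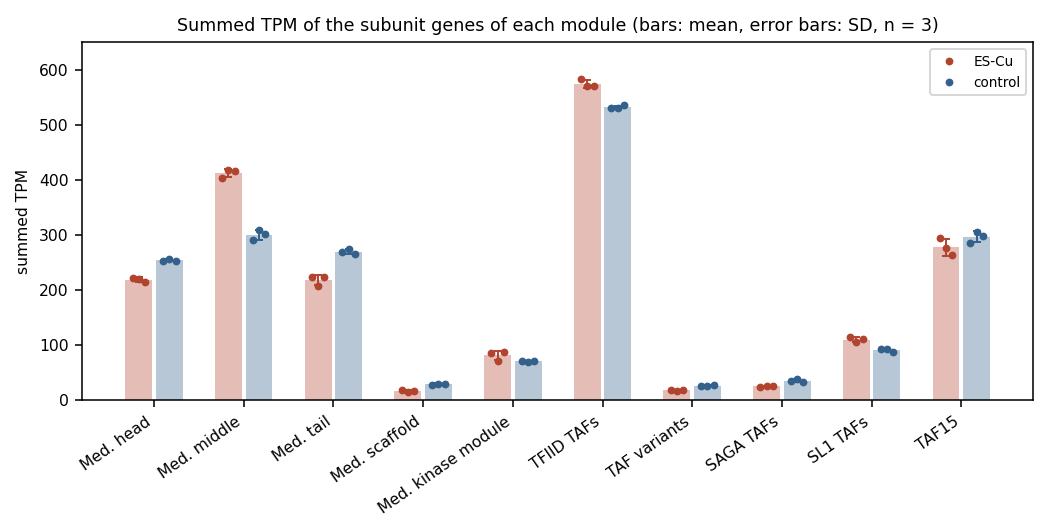
Summed TPM of the genes of each module, ES-Cu left of control, with bars at the mean, error bars of 1 SD over 3 libraries and a point per library. On the deposited scale the Mediator middle sum is higher in ES-Cu (413 against 301 TPM). The head and tail sums are lower on that scale (219 against 255 TPM and 219 against 270 TPM), a direction that depends on the scale.

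Genes of factors that act beside Mediator and TFIID were read from 3 lists, to be set beside the 13.5% of all tested genes that rose and the 31.2% that fell. TBP itself averaged 23.3 ± 1.76 TPM in ES-Cu and 23.2 ± 1.33 TPM in control and was not called as deposited (0.0043; adjusted p = 0.958, limma-trend). TBP was called higher after median-of-ratios scaling (0.54) and under quantile normalization (0.42). Of 5 genes for TBP and its regulators 2 rose, DR1 (0.34), a subunit of the repressor NC2, and the TBP-removing ATPase BTAF1 (0.16). The BTAF1 call was lost when ES-Cu replicate 1 or 2 or control replicate 1 or 3 was left out (log2 fold changes of 0.14, 0.16, 0.10 and 0.17), with no filter (adjusted p = 0.0562, limma-trend) and without the trend (adjusted p = 0.0678). Of 17 general factor genes 4 rose and 2 fell. GTF2B, which encodes TFIIB, was highest at 66.6 ± 1.70 TPM in ES-Cu and 49.7 ± 2.75 TPM in control (0.42), and GTF2H4, a TFIIH subunit, was lowest at 24.6 ± 1.89 TPM in ES-Cu and 46.3 ± 2.25 TPM in control (-0.89). Of 8 genes for the elongation kinase P-TEFb and its regulators 3 rose and 1 fell. CCNT1, its cyclin T1, had 26.4 ± 0.552 TPM in ES-Cu and 18.0 ± 0.982 TPM in control (0.53), and the inhibitor gene HEXIM2 had 1.36 ± 0.150 TPM in ES-Cu and 6.55 ± 0.509 TPM in control (-1.68).

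Fold change and base composition varied together across these genes. Transcript GC content, taken from the longest coding transcript in GENCODE 29, ran from 36.8% to 60.7% with a median of 42.5% in the 11 genes that rose, and from 41.2% to 65.4% with a median of 54.7% in the 11 that fell. MED26, at 60.7%, was the exception among those that rose. Over the 52 genes Spearman's rho of log2 fold change with GC content was -0.44, and over the 11623 tested genes with a value it was -0.22. Genes are not independent replicates, and the genes share their libraries. For exon number rho was -0.17 and for transcript length -0.070 over the 52. When the GC trend of each library was removed, a step added after the data were seen, 20 of the 22 calls held, and MED16 (-0.13; adjusted p = 0.124) and TAF10 (-0.13; adjusted p = 0.0836, limma-trend) were lost. The part of base composition in the other values was not tested.

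**Figure D5:**
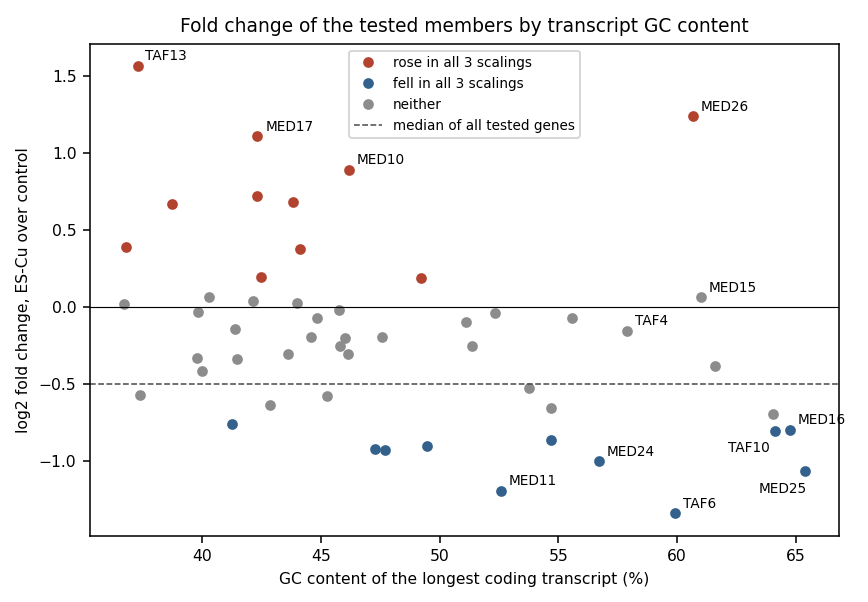
Log2 fold change (ES-Cu over control, deposited scale) of the 52 tested genes against the GC content of their longest coding transcript in percent; colours mark genes that rose, fell or did neither, and the dashed line is the median of all tested genes. Genes above 60% GC lie mostly below 0, with MED26 above it and MED15 just above it without a call. On this scale 70.0% of all tested genes were called lower.

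Promoters are shown of TAF13, MED17 and MED26, which rose by at least 1 on the log2 scale, and of TAF6, which fell most. That of TAF11, the partner of TAF13, is shown because it did not rise. MED11, MED25 and MED24 also fell by at least 1 on the deposited scale and are not shown, and the MED11 window holds an ETS motif. Each sequence shown holds 250 bases before to 50 bases after the transcription start as given by RefSeq (GRCh38.p14), on the strand of the gene, and 42 of the 54 genes had an entry. The windows are chr1:109075954-109076253 (minus strand) for TAF13, chr11:93784032-93784331 (plus strand) for MED17, chr19:16628155-16628454 (minus strand) for MED26, chr6:34887993-34888292 (minus strand) for TAF11 and chr7:100119309-100119608 (minus strand) for TAF6. Capitals mark matches, on either strand, to the ETS motif CCGGAAG, the GC box GGGCGG, the CCAAT box CCAAT, the antioxidant response element TGACNNNGC, the heat shock element GAANNTTC, the CREB/ATF site TGACGTCA and the TATA box TATAAA.
TAF13: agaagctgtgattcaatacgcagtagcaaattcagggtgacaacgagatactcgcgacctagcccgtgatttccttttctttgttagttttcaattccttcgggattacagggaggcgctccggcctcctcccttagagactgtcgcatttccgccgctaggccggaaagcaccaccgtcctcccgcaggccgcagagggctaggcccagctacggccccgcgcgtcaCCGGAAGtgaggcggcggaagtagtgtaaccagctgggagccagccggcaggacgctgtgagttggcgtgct
MED17: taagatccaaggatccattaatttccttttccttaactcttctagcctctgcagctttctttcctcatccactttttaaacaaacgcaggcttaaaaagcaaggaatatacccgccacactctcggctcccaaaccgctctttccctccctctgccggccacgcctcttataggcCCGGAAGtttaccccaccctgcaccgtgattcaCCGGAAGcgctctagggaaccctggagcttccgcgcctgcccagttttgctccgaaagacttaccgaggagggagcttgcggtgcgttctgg
MED26: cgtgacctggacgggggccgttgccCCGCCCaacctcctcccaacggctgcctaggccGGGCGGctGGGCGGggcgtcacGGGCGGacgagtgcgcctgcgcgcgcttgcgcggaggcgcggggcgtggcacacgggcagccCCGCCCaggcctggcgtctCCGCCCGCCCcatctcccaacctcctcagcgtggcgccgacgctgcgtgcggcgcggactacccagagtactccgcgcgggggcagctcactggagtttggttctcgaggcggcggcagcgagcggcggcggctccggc
TAF11: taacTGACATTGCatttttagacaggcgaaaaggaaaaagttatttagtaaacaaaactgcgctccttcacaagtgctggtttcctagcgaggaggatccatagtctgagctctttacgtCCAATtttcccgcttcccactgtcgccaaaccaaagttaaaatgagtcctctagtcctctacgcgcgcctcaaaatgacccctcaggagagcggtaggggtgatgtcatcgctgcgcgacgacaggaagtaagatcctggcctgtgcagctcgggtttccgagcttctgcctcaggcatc
TAF6: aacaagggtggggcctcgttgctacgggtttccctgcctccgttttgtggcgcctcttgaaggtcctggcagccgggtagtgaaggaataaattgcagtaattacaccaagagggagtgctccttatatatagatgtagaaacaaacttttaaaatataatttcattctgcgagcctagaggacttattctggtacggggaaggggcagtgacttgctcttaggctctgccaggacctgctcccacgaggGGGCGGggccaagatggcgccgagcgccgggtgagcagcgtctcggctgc

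The TAF13 window held 1 ETS motif and the MED17 window held 2, all upstream of the start, while MED26 had 7 GC boxes, the last 2 of which overlap. TAF11 held an antioxidant response element and a CCAAT box, and TAF6 held 1 GC box at its start. The ETS motif was found in 4 of 7 genes that rose and had an entry (MED17, TAF13, TAF1A and TAF1D). Of those that fell, 3 of 9 held it (MED11, MED18 and TAF12). It was in 15 of 41 tested members (36.6%), in 1961 of the promoters of 9821 tested genes (20%) and in 10.3% of all 35116. GC boxes were in 24 of 41 tested members (58.5%), in 71.1% of the promoters of tested genes and in 45.0% of all promoters. CCAAT was in 18 of 41 members (43.9%), in 37.0% of the promoters of tested genes and in 34.6% of all. The heat shock element was in none of the 7 and none of the 9. It was in 6 of 41 (14.6%; MED19, MED23, MED27, TAF1, TAF1B and TAF6L), in 442 of the 9821 promoters of tested genes (4.5%) and in 6.77% of all. The antioxidant response element was in 5 of 41 members (12.2%), in 15.0% of the promoters of tested genes and in 13.3% of all. The CREB/ATF site was in 3 of 41 (7.32%; MED18, TAF10 and TAF4B), in 3.35% of the promoters of tested genes and in 1.85% of all. TATAAA was likewise in 3 of 41 members, in 5.65% of the promoters of tested genes and in 11.5% of all. A match is a description of letters, not a site of binding. The ETS, GC and CCAAT motifs were added after the fold changes were seen.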

How the data were processed

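Total RNA of 6 CAL-27 libraries, 3 ES-Cu and 3 control, was read single-end on a BGISEQ instrument per the labels' protocols. The authors deposited TPM, scaled per library. The submitters' processing notes list HISAT, Bowtie2 and the mouse build GRCm38.p6, although 99.7% of the identifiers are human RefSeq genes; the quantification tool was not given in the sources used here. Library depth is unknown, so no counting interval was computed.

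In limma 3.58.1 (R 4.3.3), log2(TPM + 1) of genes averaging 1 TPM or more was fitted (mean-variance trend, two-sided, Benjamini-Hochberg over all 11927 genes, threshold 0.05). Median-of-ratios scaling and quantile normalization were applied to the whole table. Pair ratios used exact permutation tests. Full values are given for genes that moved by at least 1, for the highest and lowest of each module, for the most abundant and for members of shifted pairs; those of related lists are the highest and lowest called. TBP and CCNC were named outside this rule. Members, modules, lists and tests were chosen with earlier results of these data known. The code was tested on simulated data. Exon number, GC content and overlaps came from GENCODE 29. Settings varied were the pseudocount (0.1 and 0.5), the filter (none, or 5 TPM), removal of the 20 highest genes, the trend, a replicate block, leaving out each library and removal of the GC trend.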

Additional observations from a re-analysis of the deposited data

How the results depend on the processing

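Pseudocounts of 0.1 or 0.5, no filter, a minimum of 5 TPM and no trend changed the call of 0 of the tested members present. The 22 members that rose or fell kept their calls after median-of-ratios scaling and quantile normalization by definition. They also kept them under every other alternative run, except TAF1A (4 of the 6 fits that leave out a library) and MED16 and TAF10 (GC trend removed). The counts of members called higher and lower, 11 and 26, became 31 and 12 after median-of-ratios scaling, 25 and 11 under quantile normalization and 28 and 11 with the GC trend removed, and those of all genes (1628 and 8351) became 4532 and 4266, 3749 and 4756, and 3951 and 4706. Same-numbered libraries showed no shared deviation from their group means (correlations 0.0206, -0.0337 and 0.0107 across 11927 genes). Libraries with unlike numbers gave -0.058 to 0.0431. These values cannot show whether the libraries were prepared in pairs. With the number as a replicate block 11 members were called higher and 26 lower, and 9957 genes in all.

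After median-of-ratios scaling MED1 was at 0.23, MED7 0.098, MED9 0.44, MED19 0.29, MED23 0.38, MED27 0.51, MED29 2.45e-04, MED30 0.35, TAF1B 0.19, TAF1C 0.14, TAF2 0.50, TAF3 0.43, TAF4 0.36, TAF4B 0.20, TAF5 0.31, TAF5L 0.19, TAF8 0.35, TAF9 0.49, TAF11 0.23, TAF15 0.46 and CDK8 0.079. Under quantile normalization MED1 was at 0.095, MED7 0.085, MED9 0.44, MED19 0.15, MED23 0.35, MED27 0.26, MED30 0.15, TAF1B 0.16, TAF1C 0.042, TAF2 0.37, TAF3 0.61, TAF4 0.34, TAF4B 0.38, TAF5 0.34, TAF5L 0.080, TAF8 0.20, TAF9 0.094, TAF11 0.11 and TAF15 0.019. With the GC trend removed MED1 was at 0.08, MED9 0.45, MED19 0.19, MED23 0.20, MED27 0.42, MED30 0.17, TAF1B 0.0059, TAF1C 0.25, TAF2 0.30, TAF3 0.36, TAF4 0.40, TAF4B 0.12, TAF5 0.18, TAF5L 0.0058, TAF8 0.21, TAF9 0.30, TAF11 0.048 and TAF15 0.35. With the 20 highest genes removed MED9 was at 0.076, MED23 0.0050, MED27 0.12, TAF2 0.12, TAF3 0.11, TAF9 0.089 and TAF15 0.064.

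Median log2 fold changes, in the order all members, Mediator, TAFs, head, middle, tail, kinase module, TFIID, SAGA, SL1 and variants, were 0.33, 0.36, 0.27, 0.35, 0.56, 2.45e-04, 0.21, 0.35, -0.0027, 0.45 and 0.077 after median-of-ratios scaling, 0.16, 0.20, 0.14, 0.15, 0.44, -0.062, 0.14, 0.20, -0.021, 0.43 and 0.14 under quantile normalization, and 0.20, 0.20, 0.20, 0.17, 0.39, -0.039, 0.12, 0.21, -0.011, 0.40 and -0.074 with the GC trend removed. With the 20 highest genes removed they were -0.048, -0.018, -0.092, -0.042, 0.18 and -0.38 from all members to tail, -0.040 for TFIID, -0.38 for SAGA, 0.083 for SL1 and -0.28 for variants. Log2 ratios of summed TPM then were 0.20 (Mediator), 0.19 (TAFs), -0.056 (head), 0.62 (middle), -0.14 (tail), 0.37 (kinase module), 0.27 (TFIID), -0.39 (variants), -0.32 (SAGA) and 0.43 (SL1). A pseudocount of 0.1 put the TAF median at -0.26, and a minimum of 5 TPM put it at -0.25, the kinase module at 0.026 and the variants at -0.57, with fewer genes tested. The MED12/MED12L difference turned to 0.48 and 0.17 with pseudocounts of 0.1 and 0.5, where MED12L is near 1 TPM.

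Besides TAF1A, leaving out a library changed the call of TAF4, TAF4B, TAF5, TAF8 and TAF15 among the members, none of which rose or fell on all scales. Leaving out each library gave ranges of -0.016 to 0.11 for MED13L, -0.071 to 0.0092 for MED27, -0.033 to 0.12 for MED31, -0.043 to 0.079 for MED4, -0.10 to 0.040 for TAF3, -0.10 to 0.054 for MED12/MED12L and -0.028 to 0.27 for TAF4/TAF4B. Medians ranged from -0.22 to -0.19 (all members), -0.27 to -0.21 (TAFs), -0.043 to 0.079 (middle), -0.35 to 0.035 (kinase module), -0.24 to -0.18 (TFIID) and -0.086 to -0.031 (SL1). Depth is unknown and limits the low genes MED12L, TAF1L and TAF7L most.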

Other observations

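Members lay within 1 Mb of each other on a chromosome in 4 instances among the 42 with a RefSeq promoter entry (GRCh38.p14). MED17 and TAF1D start 42.8 kb apart on chromosome 11, on opposite strands, and both rose (1.11 and 0.72 on the log2 scale, ES-Cu over control). C11orf54, which overlaps TAF1D exons on the opposite strand in GENCODE 29, had 14.36 to 14.40 TPM in ES-Cu and 17.61 to 20.30 TPM in control. MED18 and TAF12 start 314 kb apart on chromosome 1, and both fell (-0.91 and -0.93). MED12 and TAF1, 248 kb apart on the X chromosome, were at -0.66 and -0.58 as deposited, and neither fell on all 3 scales. MED1 and MED24, 603 kb apart on chromosome 17, were at -0.31 and -1.01, and MED24 fell. These positions were looked up after the values were seen, and no test was made.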
